A study of Homo sapiens with 8 samples.

Results

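The oxysterol-binding protein family is described here through 10 genes, OSBPL1A, OSBP, OSBPL2, OSBPL3, OSBPL5, OSBPL6, OSBPL8, OSBPL9, OSBPL10 and OSBPL11, of the 52719 genes measured. They were chosen by name, after earlier results of the same libraries had shown a change in which transcript of OSBPL1A prevailed. Their differences between the groups, at the level of the gene or of the transcript, are therefore given as descriptions, and where test calls on them are counted, nothing is read from those calls. OSBP2 and OSBPL7, the other 2 genes of the family, were outside that choice. RNA came from SH-SY5Y, a human neuroblastoma line with sympathetic neuron character. Of the 8 libraries, 4 were of undifferentiated cells (replicates 17 to 20) and 4 of cells kept for 7 days with 1 µM 9-cis retinoic acid (replicates 21 to 24), a ligand of retinoic acid and retinoid X receptors. No dose or time is recorded for the undifferentiated cells, so time in culture and the retinoid cannot be told apart, and nothing in the labels says whether the libraries of a group came from separate cultures.

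Proteins of this family (OSBP and the OSBP-related proteins, ORPs) carry lipids between membranes that lie close together. A shared ligand-binding domain with a conserved signature motif holds a sterol, phosphatidylserine or the phosphoinositide PI4P, and many members return PI4P in exchange for the lipid they deliver. Longer members add domains at the N-terminal side, such as a pleckstrin homology domain that binds phosphoinositides and an FFAT motif that binds the VAP proteins of the endoplasmic reticulum. OSBPL1A encodes a long protein, ORP1L, which has ankyrin repeats that bind RAB7 on late endosomes and reports their cholesterol content, and a short one, ORP1S, which consists of little more than the ligand-binding domain.

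OSBPL1A (ENSG00000141447) lies on the minus strand of chromosome 18, from 24162044 to 24397880 in GRCh38. The long transcript, OSBPL1A-201, has 28 exons and encodes 950 residues. The short one, OSBPL1A-204, has 14 exons, of which 12 are identical to exons of the long transcript, and encodes 437 residues. Its annotated start lies 125627 bases downstream of that of the long transcript. The coding sequence of the short transcript is the in-frame end of the long one, 46.0% of its length, and begins at the codon for residue 514 of the long protein. The first line below shows the long coding sequence around that point, with the start codon of the short form in capitals. The second shows the long coding sequence around the FFAT core, in capitals, which begins at residue 475, before the start of the short form, so the short form does not contain it.

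OSBPL1A long, start of the short form: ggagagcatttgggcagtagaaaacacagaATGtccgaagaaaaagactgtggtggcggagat

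OSBPL1A long, FFAT core: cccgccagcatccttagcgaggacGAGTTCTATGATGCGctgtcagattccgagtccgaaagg

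Both forms hold the signature motif of the ligand-binding domain, at residue 647 of the long protein and residue 134 of the short one. The motif was present in the most abundant complete coding transcript of 10 of 10 members. The 24 bases that encode it give the same residues in all of them but differ in 3 to 7 bases from OSBPL1A. The lines below show it for OSBPL1A, for the closest sequence (OSBPL6) and for OSBPL5 and OSBPL11, the 2 with 7 differing bases, with bases that differ from OSBPL1A in capitals.

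OSBPL1A: gaacaggtcagccatcacccacca

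OSBPL6: gaacaggtTagccatcaTccaccC

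OSBPL5: gaGcaggtGTCccaCcacccGccC

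OSBPL11: gaGcaggtTTCTcatcaTccTcca

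The FFAT core was found in 6 of the 10 members (OSBPL1A, OSBP, OSBPL2, OSBPL3, OSBPL6 and OSBPL9) and not in the other 4 (OSBPL5, OSBPL8, OSBPL10 and OSBPL11). The search used one spelling of the core (glutamate, 2 aromatic residues, aspartate and alanine), and FFAT motifs with other letters would have been missed.

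Levels are given in TPM, the share of a library's transcripts after correction for their length, with each library summing to 1000000. They keep no read depth, so counting error is unknown. Per library, 16265 to 17370 genes were at 1 TPM or above. Replicate 22 stood apart from the other libraries: complete protein-coding transcripts made up 76.6% of its TPM, against 70.8% to 73.3% elsewhere, and retained introns 6.49%, against 7.53% to 8.61%. It was the lowest differentiated library for 8 of the 10 members. Its median-of-ratios scale factor over all genes was also the lowest of that group (0.9608, against 1.034 to 1.14 in the others). Low values in this library are therefore not particular to the members. Markers of sympathetic neuroblastoma were present in both groups, with summed levels of 1650 to 1730 TPM in undifferentiated and 1200 to 1410 TPM in differentiated libraries. Of the 9 tested, 7 fell and 1 rose, and TH, which makes the precursor of noradrenaline, averaged under 0.1 TPM in both. Of other cell types, fibroblast markers summed to 167 to 178 TPM and then 293 to 347 TPM, with 4 of 7 tested higher and COL1A2 near 0 in both groups. FAP rose from 1.651 to 62.33 TPM, COL1A1 from 9.373 to 28.3 TPM, PDGFRA from 25.38 to 48.38 TPM and THY1 from 63.93 to 99.06 TPM. Schwann cell markers summed to 7.08 to 9.04 TPM and then 15.9 to 19.0 TPM, with SOX10 and FOXD3 listed at 0. Of 3 of them tested, 1 was called, S100B, which rose from 3.726 to 12.47 TPM. No marker of blood (up to 1.38 TPM in sum) or endothelial cells (up to 0.441 TPM) reached the level tested, and neither of 2 epithelial markers tested was called (2.92 to 4.38 TPM in sum over the 8 libraries). Whether these markers have a part in the family's values was not tested.

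The long and the short transcript of OSBPL1A differed in which was the higher between the groups. The long transcript was at 11.51, 11.80, 12.05 and 11.87 TPM in undifferentiated libraries and at 12.69, 9.624, 10.76 and 11.98 TPM in differentiated ones. Its means were 11.81 ± 0.223 and 11.26 ± 1.35 TPM (SD, n = 4 each), and the groups overlapped. The short transcript was at 0.9117, 0.548, 0.7615 and 0.6027 TPM in undifferentiated libraries and at 17.43, 21.14, 18.65 and 16.85 TPM in differentiated ones. Every differentiated library lay far above every undifferentiated one, with means of 0.706 ± 0.164 and 18.52 ± 1.90 TPM. On the scale of log2(TPM+1), on which fold changes of low values are understated, the short transcript was 3.52 higher and the long one differed by -0.07. The bar plot of the 2 transcripts shows that the long one was the higher in each undifferentiated library and the short one in each differentiated library.

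**Figure D1:**
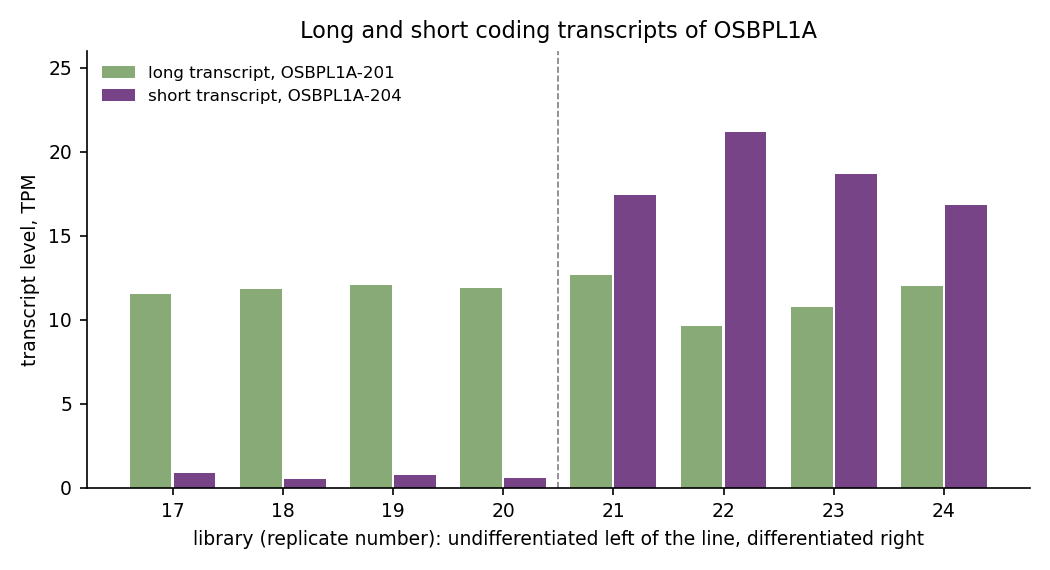
Level of the long (green) and short (purple) coding transcript of OSBPL1A in TPM (vertical axis, from 0) in each of the 8 libraries (horizontal axis, by replicate number), 1 bar per library and transcript. The long transcript stays between 9.624 and 12.69 TPM, while the short one is below 1 TPM in the 4 undifferentiated libraries and between 16.85 and 21.14 TPM in the 4 differentiated ones.

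The ratio of the short to the long transcript was 0.0599 ± 0.0147 in undifferentiated libraries (0.0464 to 0.0792) and 1.68 ± 0.382 in differentiated ones (1.37 to 2.2). Of all OSBPL1A transcripts, the short one made up 3.30% ± 0.911 and then 48.67% ± 6.82, and the long one 54.85% ± 2.18 and then 29.41% ± 2.36. Among the complete coding transcripts alone, the long form (a coding sequence of at least 80% of the longest) made up 85.12%, 86.33%, 86.32% and 87.54% in replicates 17 to 20 and 40.89%, 30.05%, 35.53% and 40.10% in replicates 21 to 24. The rest includes OSBPL1A-203, a complete coding transcript of 100 residues without the signature motif (1.092 TPM over all libraries), so that all short forms together were at 1.87 ± 0.135 and 19.54 ± 2.02 TPM. The long form was below 50% in every differentiated library, and replicate 22 had the lowest value. Without replicate 22 the difference in the long share was -47.5 percentage points, against -49.7 with it, and within lane 8 alone it was -50.3.

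The gene as a whole was at 20.47, 22.74, 21.24 and 21.77 TPM and then at 40.48, 36.70, 37.03 and 38.60 TPM. Its mean went from 21.56 ± 0.955 to 38.20 ± 1.73 TPM, a ratio of 1.77 and a log2(TPM+1) difference of 0.80 ± 0.05 (SE), with no overlap between the groups. The short transcript accounted for 107% of that difference, since the other OSBPL1A transcripts together stood at 20.85 ± 1.11 TPM before and 19.68 ± 3.38 TPM after. Apart from these 2 forms, OSBPL1A-213, a processed transcript with no coding sequence, was the only transcript of the gene with 10% or more of it in either group, at 2.362 ± 0.157 and 1.755 ± 0.868 TPM. In bulk RNA, fewer cells with a transcript and less of it per cell cannot be told apart. The short and the long transcript share 81.6% of the 3317 spliced bases of the short one, and 611 bases, all in its first exon, are its own. The 2 levels are therefore estimates in which reads from the shared exons were divided between the forms.

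The sequence just before each annotated start of OSBPL1A is shown because the short form stood higher in every differentiated library while the groups overlapped for the long form. The table used (RefSeq, GRCh38.p14) holds 3 starts for the gene. The 2 lines below give the 250 bases before the RefSeq starts of the short form (chr18:24272233-24272482) and the long form (chr18:24397825-24398074). They are read on the minus strand and in the direction of transcription, with each CpG in capitals. In the annotation used for the transcripts, OSBPL1A-201 starts at 24397859, inside the second window. The last bases of that window therefore lie within its first exon.

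OSBPL1A, before the short form: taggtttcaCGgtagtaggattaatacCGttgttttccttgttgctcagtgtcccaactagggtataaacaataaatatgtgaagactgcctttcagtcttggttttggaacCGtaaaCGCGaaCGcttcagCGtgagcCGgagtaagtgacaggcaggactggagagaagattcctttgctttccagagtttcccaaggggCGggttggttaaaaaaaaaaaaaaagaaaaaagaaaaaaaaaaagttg

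OSBPL1A, before the long form: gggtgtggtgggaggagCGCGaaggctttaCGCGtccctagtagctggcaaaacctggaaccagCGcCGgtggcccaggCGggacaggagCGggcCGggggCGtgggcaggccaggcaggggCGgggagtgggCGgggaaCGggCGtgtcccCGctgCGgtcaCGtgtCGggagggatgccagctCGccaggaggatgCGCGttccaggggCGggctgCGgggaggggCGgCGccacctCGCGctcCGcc

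The window before the long form had 28 CpGs and a GC content of 75.2%, and the one before the short form 9 CpGs and 41.2%. Over 35116 windows of the same length in the table, the median was 11 CpGs (quartiles 3 and 23) and 58.0% GC (46.4% and 68.0%). The start of the short form thus lay below the lower quartile in GC content and that of the long form above the upper quartile. The third start, between the 2 (chr18:24311507-24311756), had 3 CpGs and 38.8% GC. Of the motifs searched on both strands, TATAAA occurred once before the short form and not before the long one, and GGGCGG once before the short form and 4 times before the long one. TATAAA was found in 10.7% of all windows and GGGCGG in 42.6%. The half-sites AGGTCA and GGGTCA of nuclear receptors, each found in 12.1% of all windows, and the direct repeat of AGGTCA with 5 bases between the repeats, which retinoic acid receptors bind, were not among the letters of any of the 3 windows. The direct repeat occurred in 1 of the 35116 windows.

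A long and a short complete coding form, each with 10% or more of the coding TPM in either group, were present in 4 members. In 2 of these, OSBPL5 and OSBPL6, the level was too low for the long share to be tested. A mean of 5 TPM of complete coding transcripts in each group was required. The long share could be tested in OSBPL1A and OSBPL9, and limma on arcsine square root shares called the first alone, where 7.92% of all 2072 genes tested were called. Of 11 member transcripts tested for their share of the gene, 2 were called, both of OSBPL1A, against 2.4% of all 22951 transcripts. These counts belong to the contrast from which the members were chosen, and nothing is read from them.

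**Figure D2:**
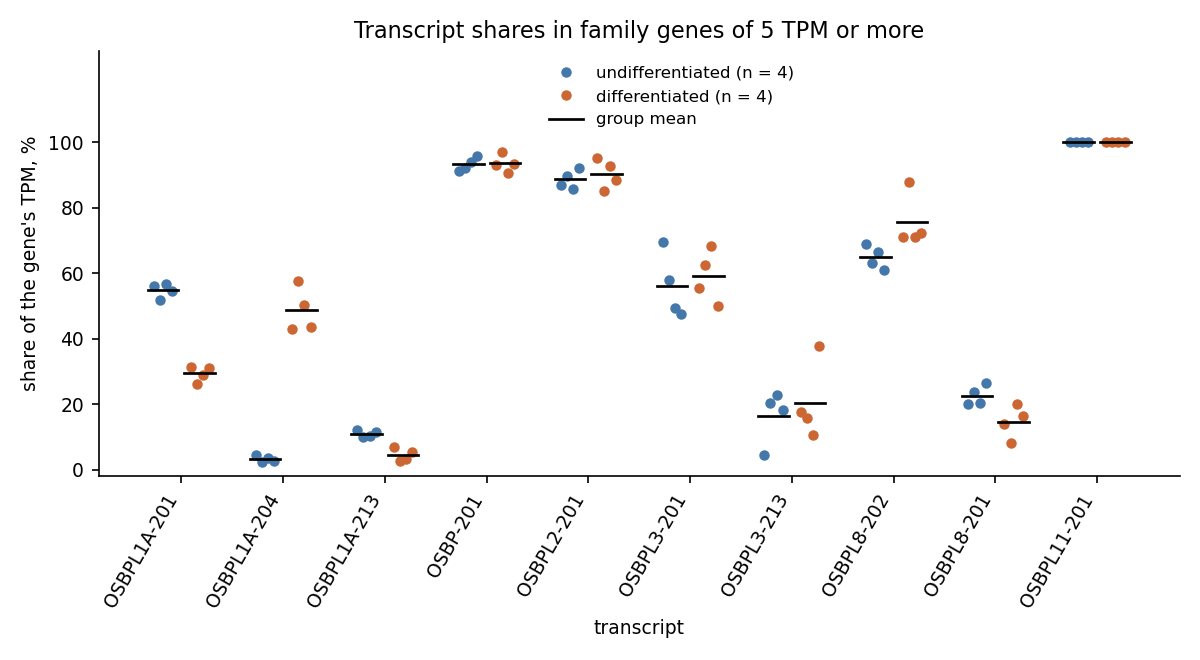
Share of the gene's TPM, in percent (vertical axis), of each transcript with 10% or more in either group (horizontal axis) in 6 members with 5 TPM or more in each group (OSBPL1A, OSBP, OSBPL2, OSBPL3, OSBPL8 and OSBPL11; OSBPL9, also above that level, has transcripts not reported here and is not drawn), with 1 point per library and the group mean as a bar. The 2 coding transcripts of OSBPL1A change places between the groups, and the widest gap between group means among the other transcripts shown is that of OSBPL8-202, from 64.95% to 75.55%.

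OSBPL9 encodes ORP9, which exchanges PI4P and phosphatidylserine or sterol between the endoplasmic reticulum and the Golgi. It was the highest of the family in both groups. It was at 50.75, 55.12, 54.92 and 56.17 TPM and then at 74.23, 54.38, 63.08 and 67.67 TPM, and replicate 22 alone overlapped the undifferentiated range. The means were 54.24 ± 2.39 and 64.84 ± 8.34 TPM, a log2(TPM+1) difference of 0.25. Its complete coding TPM was divided between long and short forms. Its long share was 50.38%, 55.79%, 59.00% and 60.04% and then 63.86%, 51.06%, 64.04% and 58.88%, with overlapping groups.

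OSBP, OSBPL11 and OSBPL10 also encode proteins that work at the Golgi or with ORP9. OSBP, the founding member, brings cholesterol to the trans-Golgi in exchange for PI4P. It was at 13.45, 13.95, 14.00 and 13.40 TPM and then at 16.41, 14.09, 15.83 and 16.38 TPM, 0.18 higher on the log2(TPM+1) scale. The groups did not overlap, but replicate 22 lay within 0.1 TPM of the highest undifferentiated library, and with quantile normalization the difference was -0.01. OSBPL11 forms a dimer with ORP9. It was at 10.28, 11.39, 11.12 and 11.26 TPM and then at 14.50, 13.14, 13.98 and 13.32 TPM, 0.29 higher, and all of it came from 1 coding transcript.

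OSBPL10, which also pairs with ORP9 and carries phosphatidylserine to the Golgi, was the lowest of the 10 in both groups. It was at 0.6275, 0.8306, 0.9518 and 0.7059 TPM and then at 2.824, 1.956, 2.421 and 2.921 TPM. The means of 0.779 ± 0.142 and 2.53 ± 0.44 TPM differed by a ratio of 3.25, with no overlap. Its 764-residue form (OSBPL10-201) was at 0.5192 ± 0.0489 and 1.243 ± 0.361 TPM. The 700-residue form (OSBPL10-204) was above 0 in 1 undifferentiated library, at 0.2138 TPM, and stood at 1.057, 0.1048, 0.8701 and 1.129 TPM in differentiated ones. Replicate 22 again stood apart, with the lowest level of the shorter form and the highest of the longer.

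OSBPL5 and OSBPL8 encode ORP5 and ORP8, which sit in the endoplasmic reticulum through a membrane anchor of their own and deliver phosphatidylserine to the plasma membrane in exchange for PI4P. The 2 genes differed in level and in response. OSBPL5 was at 0.8315, 1.015, 1.090 and 0.7456 TPM and then at 6.103, 4.501, 5.731 and 5.732 TPM. This was the largest relative difference among the members, with means of 0.9205 ± 0.159 and 5.517 ± 0.700 TPM, a ratio of 5.99 and a log2(TPM+1) difference of 1.76. The 879-residue coding transcript OSBPL5-201 went from 0.3396 ± 0.133 to 2.221 ± 0.427 TPM, and the rest of the gene was mostly 2 retained-intron transcripts. OSBPL5 and OSBPL10 averaged below 1 TPM in undifferentiated cells and passed the filter of a mean of 1 TPM over all libraries through the differentiated group alone.

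OSBPL8 was at 41.88, 46.37, 43.89 and 43.38 TPM and then at 54.29, 35.68, 42.16 and 47.68 TPM. The differentiated libraries lay on both sides of the undifferentiated ones, so the means of 43.88 ± 1.87 and 44.95 ± 7.92 TPM differ by less than the spread, and the sign of the difference turned under median-of-ratios scaling and quantile normalization (-0.11 in each). Its 847-residue form, OSBPL8-202, made up 64.95% ± 3.57 and then 75.55% ± 8.15 of the gene. The 889-residue form, OSBPL8-201, made up 22.61% ± 3.07 and then 14.69% ± 5.07, with replicate 22 lowest at 2.893 TPM.

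OSBPL3, OSBPL6 and OSBPL7 form a subfamily of long proteins with an FFAT motif that work between the endoplasmic reticulum and the plasma membrane. OSBPL3 was at 7.598, 8.676, 8.176 and 7.863 TPM and then at 17.80, 12.57, 15.64 and 18.26 TPM. Its means of 8.078 ± 0.463 and 16.07 ± 2.60 TPM give a ratio of 1.99 and a log2(TPM+1) difference of 0.90, with no overlap. The 887-residue coding transcript OSBPL3-201 went from 4.524 ± 0.747 to 9.387 ± 1.2 TPM and kept a like share of the gene, 56.14% ± 10.1 and 59.07% ± 7.99. OSBPL6, the neuronal relative of OSBPL3, was at 3.552, 4.059, 3.547 and 3.540 TPM and then at 3.210, 2.932, 2.923 and 4.304 TPM, with overlapping groups. Its log2(TPM+1) difference of -0.12 became 0.11 when protein-coding transcripts alone were summed and -0.35 with quantile normalization.

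OSBPL2 encodes ORP2, a short member with no pleckstrin homology domain that acts on lipid droplets and brings cholesterol to the plasma membrane. It was at 10.43, 9.982, 10.07 and 9.701 TPM and then at 12.91, 12.08, 12 and 13.70 TPM. The groups did not overlap, and the log2(TPM+1) difference was 0.31. The 480-residue transcript OSBPL2-201 made up 88.71% ± 2.86 and 90.43% ± 4.49 of the gene.

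OSBP2 and OSBPL7 were outside the choice of the 10 members, although they too were listed with earlier results of these libraries known. Their values are given with limma's test over all genes. OSBP2 was at 2.198, 3.351, 2.641 and 3.744 TPM and then at 1.967, 1.927, 2.648 and 2.787 TPM (log2(TPM+1) difference -0.25 ± 0.16 SE, adjusted p = 0.217 by limma). OSBPL7 was at 16.87, 15.48, 14.49 and 16.79 TPM and then at 22.75, 15.24, 17.27 and 23.16 TPM (0.27 ± 0.14, adjusted p = 0.136 by limma). Neither passed, and both had overlapping groups. Under quantile normalization OSBP2 passed as lower (-0.47, adjusted p = 0.0338 by limma). OSBPL7 passed as higher in 2 of 18 alternatives, among them the sum of protein-coding transcripts alone (0.71, adjusted p = 0.000109 by limma). The one complete coding transcript of OSBPL7 with 10% or more of the gene, OSBPL7-201, was at 3.891, 2.65, 3.674 and 3.262 TPM and then at 5.707, 7.111, 5.913 and 5.820 TPM, while its share of the gene did not pass (adjusted p = 0.201 by limma).

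**Figure D3:**
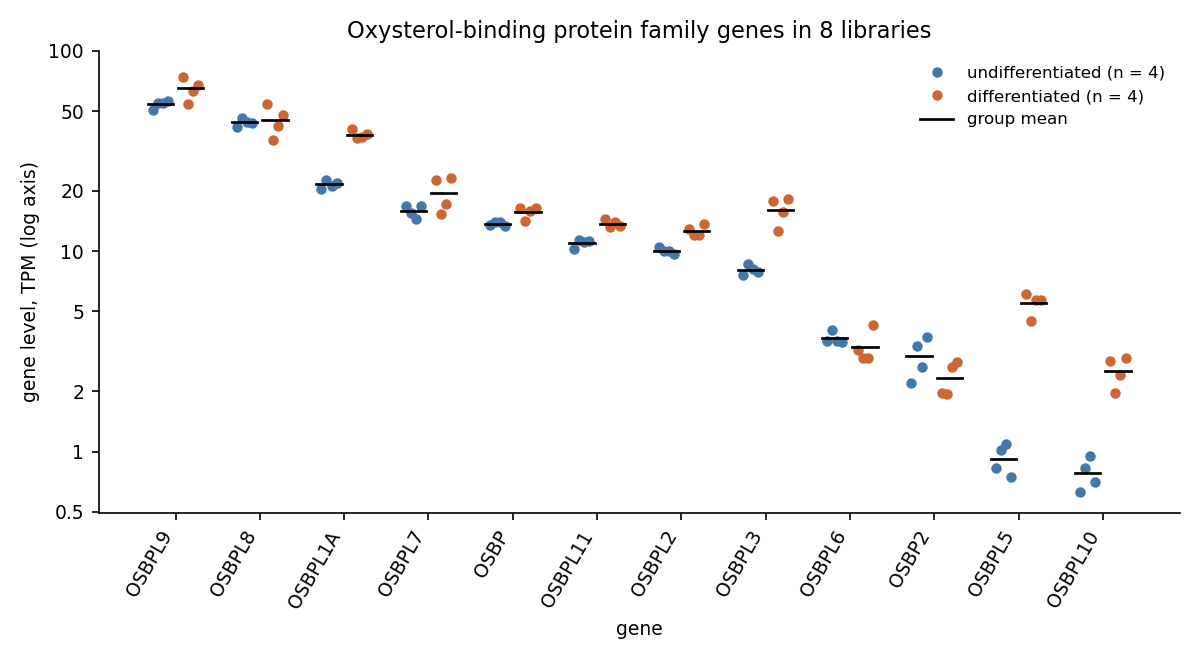
Level of the 10 members, OSBP2 and OSBPL7 in TPM (vertical log axis) by gene (horizontal axis, in falling order of the undifferentiated mean), with 1 point per library and the group mean as a bar. OSBPL9 and OSBPL8 are the highest in both groups, and OSBPL1A, OSBPL3, OSBPL5 and OSBPL10 show the widest gaps between the groups.

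In undifferentiated libraries the order of levels per length among the 10 was OSBPL9, OSBPL8, OSBPL1A, OSBP, OSBPL11, OSBPL2, OSBPL3, OSBPL6, OSBPL5 and OSBPL10. The ranges of OSBPL11 and OSBPL2, and of OSBPL5 and OSBPL10, overlapped, and the other neighbours did not. In differentiated libraries OSBPL1A (38.2 TPM) overlapped OSBPL8 (45.0 TPM), and OSBPL3 moved up to the fourth place, where its range overlapped that of OSBP. OSBPL5 stood above OSBPL6, with no overlap. OSBPL1A made up 12.84% ± 0.208 of the summed TPM of the 10 members in undifferentiated and 17.66% ± 1.29 in differentiated libraries. That sum went from 167.9 ± 5.92 to 217.5 ± 23.6 TPM, and replicate 22 had the lowest differentiated sum (188 TPM).

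Of complete coding transcripts of the 10 genes, those with the FFAT core made up 58.95%, 58.68%, 59.87% and 59.93% of the TPM in undifferentiated libraries and 54.55%, 54.85%, 55.45% and 54.84% in differentiated ones. The groups did not overlap, although transcripts with the core summed to more in differentiated (95.79 ± 4.45 TPM) than in undifferentiated libraries (77.74 ± 2.65 TPM). With the short OSBPL1A transcript left out, the share with the core was 59.68% ± 0.643 and 61.5% ± 1.28.

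Of the 10 members, 7 were called higher and 0 lower by limma at an adjusted p under 0.05, where 33.9% of the 17077 genes tested were called higher and 17.4% lower. The groups of 7 members did not overlap, with the differentiated libraries higher, as in 32.3% of all genes. Since the members were chosen with this contrast known, nothing is read from these counts. The members' median log2(TPM+1) difference was 0.30 and that of all genes 0.10, which median-of-ratios scaling moved to 0.18 and -0.02 and quantile normalization to 0.12 and -0.07. Under quantile normalization 4 members were called higher (OSBPL1A, OSBPL3, OSBPL5 and OSBPL10) and 1 lower (OSBPL6). Without replicate 22, 8 were called higher. The call of OSBP was lost in 12 of 18 alternatives, among them the removal of any 1 library other than replicate 22.

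**Figure D4:**
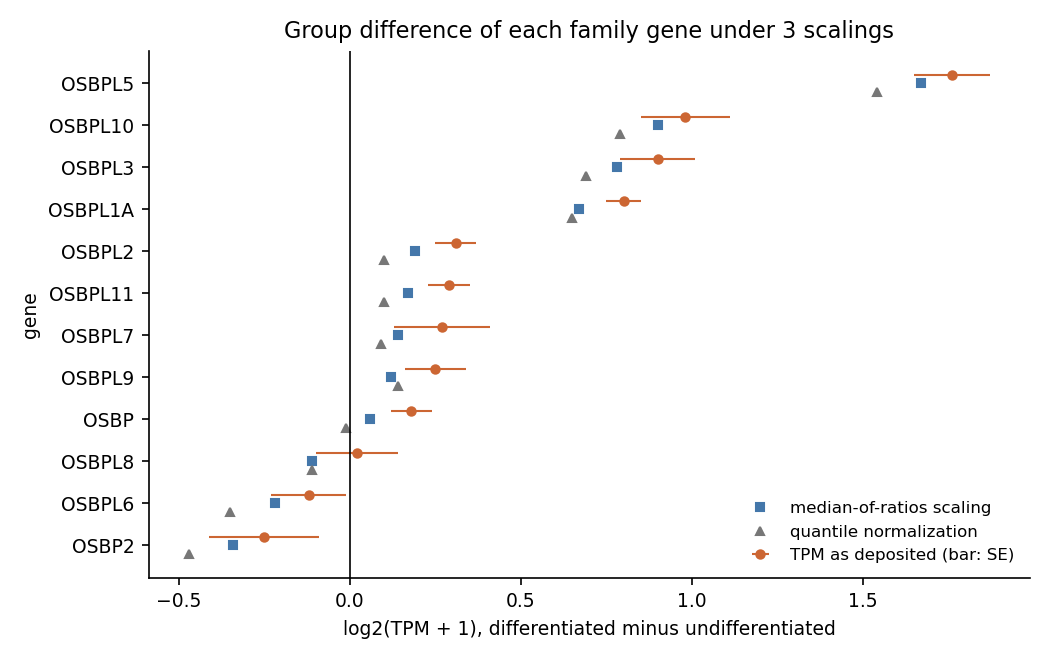
Difference in log2(TPM+1), differentiated minus undifferentiated (horizontal axis), of the 10 members, OSBP2 and OSBPL7 (vertical axis), from the deposited TPM (circles, bars are SE), after median-of-ratios scaling (squares) and after quantile normalization (triangles). OSBPL5, OSBPL10, OSBPL3 and OSBPL1A stay above 0.6 under the 3 scalings, OSBPL8 lies on both sides of 0, and OSBP falls to -0.01 with quantile normalization.

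The 2 undifferentiated libraries of lane 7 and the 2 of lane 8 allow a comparison of lanes that the choice of members did not use. Of 8 members tested, 0 were called by limma, against 0.012% of 16647 genes, and 0 had an unadjusted p under 0.05, as 652 genes did. With 2 libraries per lane and only 2 of the 16647 genes called, a call among so few members was unlikely from the outset. The absence of calls is therefore not read as an absence of lane effects. The largest lane difference of a member was 0.08 in absolute log2(TPM+1). All differentiated libraries were in lane 8. Within that lane the OSBPL1A difference was 0.80 and the ratio of the short transcript's means was 27.15.

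The genes whose profile over the 8 libraries lay closest to that of OSBPL1A, by the root mean square difference of centred log2(TPM+1) among 10412 protein-coding genes averaging at least 5 TPM, were RAB31 (0.0342), HPS3 (0.0343), TMEM65 (0.0361), FAM177A1 (0.0413) and IBTK (0.0414). Their log2(TPM+1) differences ran from 0.78 to 0.8, against 0.8 for OSBPL1A. The closeness thus largely follows the contrast on which OSBPL1A was chosen. It was measured on the sum of all OSBPL1A transcripts, and no shared function is read from it. RAB31 went from 8.913 ± 0.523 to 15.96 ± 0.86 TPM and HPS3 from 17.35 ± 0.635 to 30.48 ± 1.41 TPM.

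Genes of the pathways in which the family works were counted from 8 lists, OSBP2 and OSBPL7 included. Of their 82 genes tested, 34 rose, 10 fell and 38 did not pass (limma, adjusted p under 0.05), so that 53.7% were called, against 51.3% of all genes. Their median log2(TPM+1) difference was 0.20. The split of 34 higher and 10 lower became 32 and 16 under median-of-ratios scaling and 30 and 20 under quantile normalization. Over all genes it was 5791 and 2970, then 4605 and 4457, and then 4173 and 5098.

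The list for late endosomes, where ORP1L works, holds its partners and also other genes such as LAMP1 and LAMP2. It had 7 of 13 tested genes higher and 1 lower, with a median of 0.35. LAMP1 and LAMP2, the main membrane glycoproteins of late endosomes and lysosomes, rose from 39.92 ± 1.22 to 97.73 ± 4.55 TPM and from 24.81 ± 0.969 to 58.69 ± 4.53 TPM (log2 1.27 ± 0.05 and 1.21 ± 0.06 SE, limma adjusted p = 1.98e-07 and 1.4e-06). ANXA1, an annexin at contacts between endosomes and the endoplasmic reticulum, was at 0.07731 ± 0.0321 and 5.608 ± 0.492 TPM (2.61 ± 0.10), and passed the filter of 1 TPM through the differentiated group alone, so its call is counted but not read as a test. PLEKHM1, an adaptor for RAB7 and the HOPS tethering complex, rose by 0.76 ± 0.15, but its difference of 0.18 did not pass when protein-coding transcripts alone were summed. RAB7A, to which ORP1L binds, rose from 106.4 to 136.2 TPM. DCTN1, the dynactin subunit that links endosomes to dynein, was the gene of the list that fell, from 67.8 to 55.99 TPM.

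Of the VAP proteins and the genes listed with them for contact sites of the endoplasmic reticulum, 6 of 15 tested were higher and 1 lower, with a median of 0.25. WDR44, an FFAT protein of recycling tubules, rose from 5.573 ± 0.276 to 17.06 ± 1.51 TPM (1.46 ± 0.08, limma adjusted p = 1.4e-06), and ACBD5, a peroxisomal VAP partner, from 28.53 ± 0.382 to 65.75 ± 5.87 TPM (1.17 ± 0.06). PITPNM1 rose by 0.67 ± 0.10 and MOSPD3 by 0.49 ± 0.08. The VAP genes themselves, VAPA (84.22 and 90.86 TPM) and VAPB (31.86 and 32.88 TPM), did not pass.

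The list for PI4P and PI(4,5)P2, the lipids that ORPs return, had 9 of 21 tested genes higher and 1 lower, with a median of 0.18. It holds kinases and phosphatases of these lipids and also genes that are neither. Among the latter were ARF1, ACBD3 and TTC7B, which were called higher, and EFR3A, the gene that fell. The largest called changes were rises of the phosphatase SYNJ2 (1.18 ± 0.10), the kinase PIP4K2A (0.71 ± 0.11), the phosphatase INPP5E (0.69 ± 0.06) and TTC7B, a subunit of the kinase complex that makes PI4P at the plasma membrane (0.42 ± 0.11). TTC7B did not pass within lane 8 or with the lane as a covariate. Genes that make or move phosphatidylserine, the cargo of ORP5, ORP8 and ORP10, had 3 of 8 tested higher and 2 lower. TMEM30A, the partner subunit of flippases, rose from 67.55 ± 0.828 to 122.6 ± 8.02 TPM (0.85 ± 0.05), the scramblase ANO6 by 0.69 ± 0.12 and the decarboxylase PISD by 0.50 ± 0.11. PTDSS2, a phosphatidylserine synthase, fell by 0.21 ± 0.06, a call lost in 5 alternatives (within lane 8, with the lane as a covariate, and without replicate 17, 19 or 23) and turned to 0.04 when protein-coding transcripts alone were summed.

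Other sterol and ceramide transfer proteins had 4 of 12 tested genes higher and 1 lower. NPC2, which hands cholesterol on inside lysosomes, rose from 42.12 ± 1.46 to 327.7 ± 25.9 TPM (2.93 ± 0.06, limma adjusted p = 1.47e-08). SCARB2, a lysosomal membrane protein, rose by 1.13 ± 0.06 and SCP2 by 0.41 ± 0.04, and TMEM97, which regulates NPC1, fell by 0.78 ± 0.04. Genes of oxysterol synthesis and breakdown were mostly below 1 TPM, and of 4 tested, HSD3B7, an enzyme of bile acid synthesis that acts on oxysterols, was called higher, at 0.7266 ± 0.142 and 8.393 ± 0.47 TPM (2.45 ± 0.09), having passed the filter through the differentiated group alone, and DHCR7 and EBP, enzymes of late cholesterol synthesis, fell by 0.75 ± 0.11 and 0.54 ± 0.07. Among the oxysterol sensors and their partners, 4 of 9 tested rose and 2 fell. NR1H3, the oxysterol receptor LXR alpha, rose from 4.727 ± 0.474 to 14.31 ± 2.09 TPM (1.41 ± 0.11, limma adjusted p = 1.27e-05), its target ABCG1 by 0.85 ± 0.16 and NR1H2 (LXR beta) by 0.38 ± 0.06. Of other LXR targets in the list, SREBF1 rose from 78.64 to 96.52 TPM (0.29 ± 0.08, limma adjusted p = 0.0161). MYLIP was lower without overlap (5.26 and 4.483 TPM) but did not pass. ABCA1 was higher (0.02659 and 0.5993 TPM) but too low to be tested. SREBF2, the transcription factor of cholesterol synthesis, fell by 0.76 ± 0.09.

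**Figure D5:**
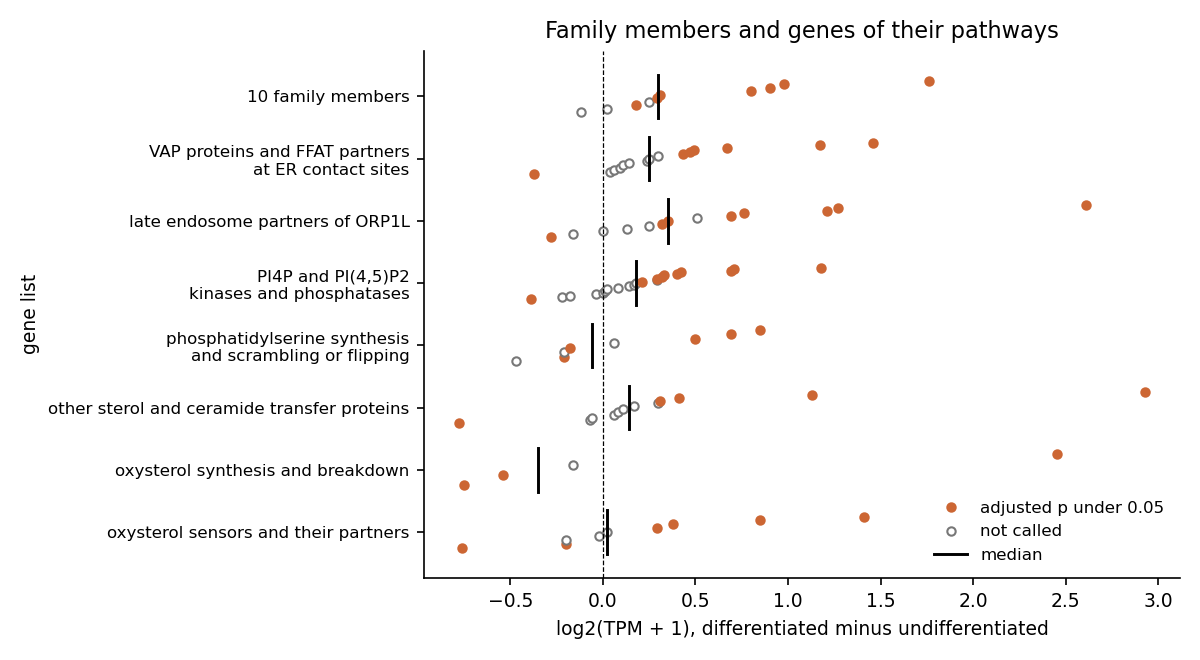
Difference in log2(TPM+1), differentiated minus undifferentiated (horizontal axis), of each tested gene (point) in the family and in 7 lists of its pathways (vertical axis), filled where limma's adjusted p was under 0.05, with the list's median as a bar. The members' median is 0.30, and the medians of the lists run from -0.35 to 0.35.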

How the data were processed

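Per the labels' protocols, total RNA of the 8 libraries was made into stranded mRNA libraries. The authors deposited TPM for 194993 Ensembl transcripts. Per the submitters' processing notes, FastQC 0.11.2, Salmon and build GRCh37 were used. The annotation release, the Salmon version and whether strand was used are unknown here (not given in the sources used). Salmon divides reads shared by similar transcripts, so levels of overlapping forms, paralogs and antisense genes are uncertain, and TPM keeps no depth.

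Transcripts were matched by identifier to GENCODE 29 (GRCh38; 180930, or 92.8%, matched, with 93.2% to 95.0% of a library's TPM) and summed by gene. The reference may differ from the authors' annotation. Genes averaging at least 1 TPM were tested on log2(TPM+1), pseudocount 1, with limma 3.58.1 in R 4.3.3 (intensity trend, group as the only term, all 8 libraries), two-sided, with a Benjamini-Hochberg adjusted p under 0.05 as the call. Long forms have a coding sequence of at least 80% of the longest complete one. Shares were tested with limma on the arcsine square root. Long shares needed 5 TPM or more of complete coding transcripts in each group and a mean share of 5% to 95%. Transcript shares needed 5 TPM or more of the gene in each group and a mean share of 10% to 90%. A transcript call also needed 10 percentage points. The 2 lanes were set against each other with limma in undifferentiated cells. Coding sequences came from GENCODE 29 transcripts and promoters from RefSeq (GRCh38.p14). Sums and summaries used pandas 2.3.3 and numpy 2.4.6 under Python 3.11.15.

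The members and the 14 lists (8 of pathways, 6 of cell type markers) were chosen with earlier results of these data known. The named genes were the 12 family genes, up to 4 called genes of each list with the largest changes, member transcripts with 10% or more of its gene in either group, and the 5 genes closest in profile to OSBPL1A. RAB7A, DCTN1, VAPA, VAPB, ARF1, ACBD3, EFR3A, SREBF1, MYLIP, ABCA1, TH, COL1A2, OSBPL1A-203, SOX10 and FOXD3 were named after their values were seen. Called neuroblastoma markers are given as counts. A few transcripts and a marker gene are not reported here. Alternatives covered the pseudocount, filters, scaling, lane, transcript classes and leaving out each library. Because the labels do not name separate cultures, p-values measure only the spread between these libraries. On simulated data of 17077 genes, limma recovered 17 of 40 genes raised by 0.5, 33 of 40 raised by 1 and 36 of 40 raised by 2 (log2), with 10 false calls. Only a small part of the genes was changed there, against 51.3% of genes called in these data. The adjusted p therefore works differently, and the recovery does not carry over to the real contrast. For the long share (2072 genes), 92 of 100 genes lowered and 88 of 100 raised by 0.3 on the arcsine square root scale were recovered.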

Additional observations from a re-analysis of the deposited data

Results flagged for a closer look

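In groups of 4 libraries, a value was picked out where its gap to the nearest of the others, as a part of the group's range, exceeded Dixon's 95% critical value. Of 186 groups tested 12 were picked out, and chance alone picks out about 5%. Of the 12, 4 concerned replicate 22, which also stood apart in its share of complete coding transcripts.

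In differentiated replicate 22, OSBPL8-201 was low at 2.89 TPM (others 7.59 to 8.51). The longer OSBPL10 form, OSBPL10-201, was high in that library at 1.78 TPM (1.04 to 1.09), and so was OSBPL7-201 at 7.11 TPM (5.71 to 5.91). Outside the family, PLEKHM1 was low there at 6.8 TPM (11 to 11.1). In undifferentiated replicate 18, OSBPL6 was high at 4.06 TPM (3.54 to 3.55), and the long forms of OSBPL10 together were high at 0.66 TPM (0.536 to 0.548). In the same library OSBPL10-201 was low at 0.446 TPM (0.536 to 0.548) and OSBPL10-204 was at 0.214 TPM where the others were listed at 0. OSBPL8-202 was low in undifferentiated replicate 20 at 26.4 TPM (28.9 to 29.3). OSBPL10-208 was at 0.0869 TPM in differentiated replicate 24 and listed at 0 in the others. TTC7B was high in differentiated replicate 21 at 16.5 TPM (12.1 to 12.8), and DBH, a marker of noradrenergic cells, was low in undifferentiated replicate 17 at 204 TPM (231 to 234).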

How the results depend on the processing

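The OSBPL1A gene difference ranged from 0.65 to 1.16 over 18 alternatives (0.77 to 0.82 without a library), and its long share difference from -51.1 to -47.5 points over the 15 run for shares. Some alternatives could change only the p-value. For the gene difference these were the filters and the fit without trend. For the share they were the logit, the lower minimum and the lane as a covariate. OSBPL1A was chosen on this contrast, so nothing is read from its calls. No paired analysis was possible because the groups share no replicate numbers. Members called higher were 6 to 8 without 1 library and 4 under quantile normalization, where 1 was called lower (0 with the deposited TPM). Within lane 8, 1886 genes were called lower (2970 in all libraries), 4457 under median-of-ratios scaling and 5098 under quantile normalization. Pathway genes called lower (10) were 5 within lane 8, 5 with the lane as a covariate, 16 with median-of-ratios scaling, 20 with quantile normalization and 5 to 13 without 1 library. Genes called for long share (164) were 9 within lane 8, 20 with the lane as a covariate, 95 with incomplete coding transcripts, 106 with a limit of 50% and 65 to 200 without 1 library. Transcripts called (550) were 35 within lane 8, 52 with the lane as a covariate and 158 to 680 without 1 library. The 2 genes called between lanes became 0 with a minimum of 5 TPM and 0 with a pseudocount of 0.1.

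Signs turned in these cases, whose cause was not tested. In log2(TPM+1), OSBP was -0.01 with quantile normalization, and OSBPL6 (0.11) and PTDSS2 (0.04) turned with protein-coding transcripts alone. OSBPL8 was -0.11 with either scaling, -0.08 without replicate 21, -0.01 without 24 and -0.00 without 17 (up to 0.12 without 22). In percentage points, the OSBPL9 long share was -0.1 within lane 8. OSBPL3-201 was -0.1 without replicate 23 (up to 7.4 without 17), and OSBPL3-213 was -0.2 within lane 8, -1.8 without 24 and -0.1 without 17 (up to 7.2 without 23). Depth is unknown, so the error of levels below about 1 TPM, among them OSBPL5, OSBPL10 and the short OSBPL1A transcript in undifferentiated cells, cannot be stated.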
